A study of Mus musculus with 2 samples.

Results

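Mir143 and Mir145a are the 2 mouse genes that encode miR-143 and miR-145, the miRNA pair best known from smooth muscle. They were picked by gene symbol and are 2 of the 1973 miRNA genes counted in each library. Small RNA under 30 nt was sequenced from whole stomach of B6NCrl mouse embryos at embryonic day 15.5, males and females together. There was 1 group and no second condition: replicate 1 came from stomachs of 78 pooled embryos and replicate 2 from stomachs of 62. Each pool gave 1 library, so an SD over the libraries describes 2 pools, not single animals.

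miR-143 and miR-145 are cut from a shared primary transcript, which serum response factor and its partner myocardin switch on in smooth muscle. In mouse smooth muscle they favour the contractile over the proliferating state, in part by repressing the transcription factor Klf4 and Elk1, a growth factor-driven rival of myocardin. In the mouse gut the pair is known from the muscle coat and the mesenchyme below the epithelium, where miR-143 acts on Igfbp5, an inhibitor of insulin-like growth factor signals needed for repair of the epithelium. Each miRNA gene gives a hairpin from which mature strands of about the same short size are cut. The counts join all reads on the sense strand of a gene, so the mature arms are not told apart.

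The 2 genes lie on the minus strand of chromosome 18 in the mm10 assembly. Mir143 (ENSMUSG00000065445) spans positions 61649196 to 61649258 and Mir145a (ENSMUSG00000065592) positions 61647825 to 61647894, with 1301 bases between them. Each is annotated as a single miRNA hairpin, 63 bases long for Mir143 and 70 for Mir145a, and no other GENCODE M21 gene overlaps either. The long noncoding RNA Carmn, also named Mir143hg, lies on the same strand in GENCODE M21 with its near end 366 bases upstream of Mir143. RefSeq draws Carmn longer, at 61645878 to 61665538, so that it holds both hairpins. Bvht, a long noncoding RNA on the plus strand, ends 352 bases from Mir145a.

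Mir143 had the most counted reads of all miRNA genes of the embryonic stomach in both libraries. It had 1051029 sense-strand counts in replicate 1 and 1210564 in replicate 2. Scaled to CPM, the count a gene would have if the sense-strand miRNA gene counts of its library summed to 1000000, these were 175503 CPM in replicate 1 and 181344 CPM in replicate 2, on average 178424 ± 4131 CPM (SD, n = 2). More than 1 in 6 counted reads thus came from this gene: 17.6% in replicate 1, with a 95% Wilson interval of 17.5 to 17.6, and 18.1% in replicate 2, with one of 18.1 to 18.2. Of all reads of a library, those given to no gene included, Mir143 made up 9.09% in replicate 1 and 9.58% in replicate 2. Levels, ranks and ratios between genes are of reads. Whether different miRNAs give reads in equal proportion to their molecules was not tested.

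No other gene came near this level in counted reads. Reads that match several places (25.5% of reads in replicate 1 and 27.0% in replicate 2) are in no gene's count. Their part in the order of the genes was not tested. Mir143 exceeded Mir99a, a relative of miR-100 and the gene of second rank, 3.09-fold in replicate 1 and 3.02-fold in replicate 2 in CPM. Mirlet7g, Mir335, Mirlet7i and Mir10a followed. In these 5 genes the mean CPM lay between 38234 for Mir10a and 58462 for Mir99a, and in each case the gap to Mir143 was larger than the SD of either gene. The 4 next genes had to be added up to reach the count of Mir143, in both libraries. From the other end, the 1933 lowest genes of replicate 1, of which 624 had any count, summed to 17.4% of the counts, just under Mir143. In replicate 2 these were 1937 genes, 627 of them with a count, and 17.9%.

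Mir145a had many counts but far fewer than its neighbour. It had 17490 counts in replicate 1 and 13712 in replicate 2, or 2921 and 2054 CPM, on average 2487 ± 613 CPM (SD, n = 2). Its share was 0.292% in replicate 1, with a 95% Wilson interval of 0.288 to 0.296, and 0.205% in replicate 2, with one of 0.202 to 0.209. It ranked 55 in replicate 1, 63 in replicate 2 and 59 by mean CPM. Of the 1973 listed genes, 726 had a count and 99 reached 1000 CPM, so Mir145a belonged to the upper part of the expressed genes. Its counting error was 0.756% of the count in replicate 1 and 0.854% in replicate 2, against an SD between the pools of 24.6% of the mean. For Mir143 that SD was 2.32% of the mean. Per base of annotated hairpin the levels were 2786 and 2878 CPM for Mir143 and 41.7 and 29.3 CPM for Mir145a, and on that scale they ranked 1 and 54 by mean.

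**Figure D1:**
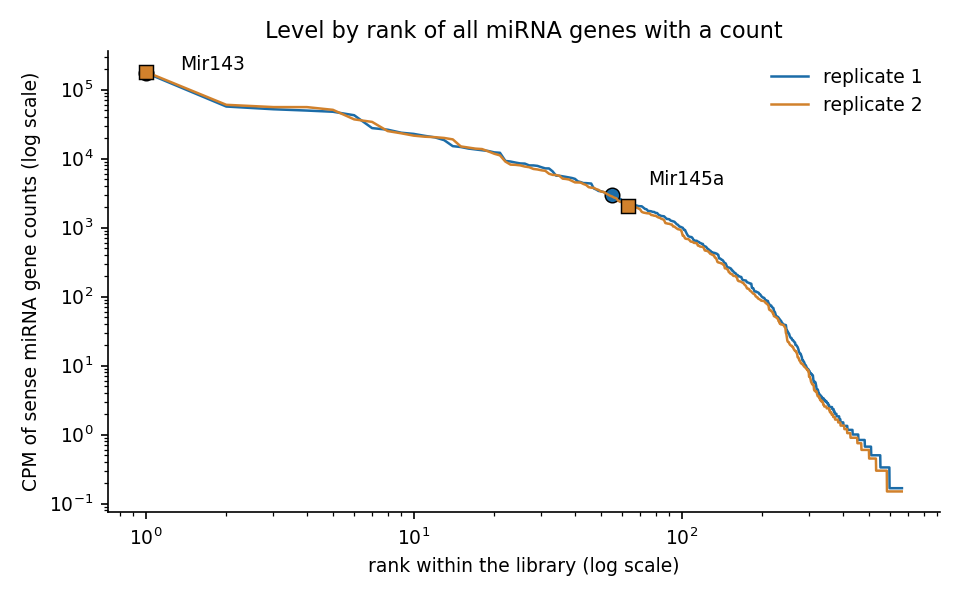
CPM of sense-strand counts against the rank of the gene within its library, both on log scales, for every miRNA gene with a count. Lines are the 2 libraries, and circles (replicate 1) and squares (replicate 2) mark Mir143 at rank 1 and Mir145a at ranks 55 and 63. The curve drops about 3-fold from the first to the second rank and is smooth where Mir145a lies.

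The genes nearest to Mir145a in mean CPM over the 2 libraries were Mirlet7f-2 (2717 CPM), Mir183 (2656 CPM) and Mir92-1 (2542 CPM) above it, and Mir381 (2285 CPM), Mir361 (2275 CPM) and Mir139 (2217 CPM) below it. Mir183 is known from sensory epithelium, Mir92-1 from the proliferation-linked miR-17-92 cluster, and Mir381 from the imprinted Dlk1-Dio3 region. None of these 6 differed from Mir145a by more than the larger of the 2 SDs. In all, 17 genes lay within that distance. They held the ranks from 55 to 71 around Mir145a, and rank 77. The gene at rank 77, Mir122, lay within it only through its own SD of 1194 CPM. The place of Mir145a among these 17 is not resolved. In replicate 1 Mir145a stood above all 6 neighbours. In replicate 2 it stood below all of them.

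No opposite-strand count was recorded at either gene. At Mir143 the 0 counts allowed at most 0.000285% of its sense counts in replicate 1 and 0.000248% in replicate 2, and at Mir145a at most 0.0172% and 0.0219%. These limits rest on 3 counts and, like the intervals, cover counting error only, since amplified reads are not independent molecules. Mir145b, a gene of similar name on the same chromosome (69022199 to 69022273, minus strand), had no count in either library, which allowed up to 0.501 CPM in replicate 1 and 0.449 CPM in replicate 2. Reads that match several places are a line of their own in the tables (25.5% of reads in replicate 1 and 27.0% in replicate 2). They are in no gene's count, and whether any belonged to the pair was not tested.

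Within the pair, Mir143 exceeded Mir145a by 6.19 ± 0.39 on the log2(CPM + 1) scale (SD, n = 2). The ratio of counts was 60.1 in replicate 1 (95% exact Clopper-Pearson interval 59.2 to 61.0) and 88.3 in replicate 2 (86.8 to 89.8). Per base of annotated hairpin the ratio was 66.8 in replicate 1 and 98.1 in replicate 2. The counting intervals of the 2 libraries do not overlap, and the ratio was 1.47 times as large in replicate 2. Mir145a thus made up 1.64% of the pair's counts in replicate 1 and 1.12% in replicate 2. Together the pair held 18.1% ± 0.352 of the sense counts, and this sum moved little because Mir143 dominates it.

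The span of the pair was set beside those of other neighbouring miRNA genes that may share a transcript. There were 25 clusters of exactly 2 annotated miRNA genes on 1 strand, under 10000 bases apart, with at least 10 counts of each gene in each library. In all 25 the same gene was the higher one in both libraries. The span of the pair, 6.19, had 3 others at or above it, against a median of 3.15 and a range of 0.36 to 8.51 in the other 24. Mir99a over Mirlet7c-1 (8.51), Mir30e over Mir30c-1 (7.66) and Mir130b over Mir301b (6.21) were wider. Next below were Mir214 over Mir199a-2 (5.88), a mesenchyme cluster, and Mir181a-1 over Mir181b-1 (5.75). The narrowest was Mir374b over Mir421 (0.36). Mir130b over Mir301b differed from the pair by less than the pair's SD of 0.39, and so did Mir214 over Mir199a-2. The order among these 3 is therefore not resolved, and in replicate 1 alone the pair had 4 clusters at or above it and in replicate 2 alone 2.

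Several of the comparison clusters rest on a gene whose mature miRNA is encoded at more than 1 place, so that its reads can match several places. Mirlet7c-1, Mir30c-1 and Mir199a-2, the lower genes of their clusters, each have such a copy in the RefSeq table; for Mir99a, Mir30e and Mir214 beside them the table holds none. Their mature sequences, from RefSeq on GRCm38.p6, are given 5′ to 3′ with the seed (bases 2 to 8), which pairs with target mRNAs, in capitals.
Mir99a (miR-99a-5p, chromosome 16): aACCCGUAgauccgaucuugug
Mirlet7c-1 and Mirlet7c-2 (let-7c-5p, chromosomes 16 and 15): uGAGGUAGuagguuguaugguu
Mir30e (miR-30e-5p, chromosome 4): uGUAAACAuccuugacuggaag
Mir30c-1 and Mir30c-2 (miR-30c-5p, chromosomes 4 and 1): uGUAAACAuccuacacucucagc
Mir214 (miR-214-3p, chromosome 1): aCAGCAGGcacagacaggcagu
Mir199a-2 and Mir199a-1 (miR-199a-5p, chromosomes 1 and 9): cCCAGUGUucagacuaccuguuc
The miR-30e and miR-30c strands share a seed but differ after it, while each pair of numbered copies is letter for letter the same in the strand shown. The listed copies had few counts: 966 in replicate 1 and 1057 in replicate 2 at Mirlet7c-1, 449 and 406 at Mir30c-1, and 710 and 804 at Mir199a-2. The part that reads matching several places have in these low counts was not tested. With every cluster left out in which a symbol carries a copy number, 13 clusters remained. Then 1 other cluster, Mir130b over Mir301b, had a span at or above that of Mir143 over Mir145a, and the other 12 had a median span of 2.92.

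The 2 libraries differed more in the span of Mir143 over Mir145a than in most other clusters. The span was 5.91 in replicate 1 and 6.46 in replicate 2, a change of 0.55 in size. In the other 24 clusters the median change was 0.17, and 3 of them changed as much or more, with a largest change of 1.43. These 3 were Mir181b-2 over Mir181a-2, Mir206 over Mir133b, a skeletal muscle cluster, and Mir30d over Mir30b; they were named after their values were seen.

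**Figure D2:**
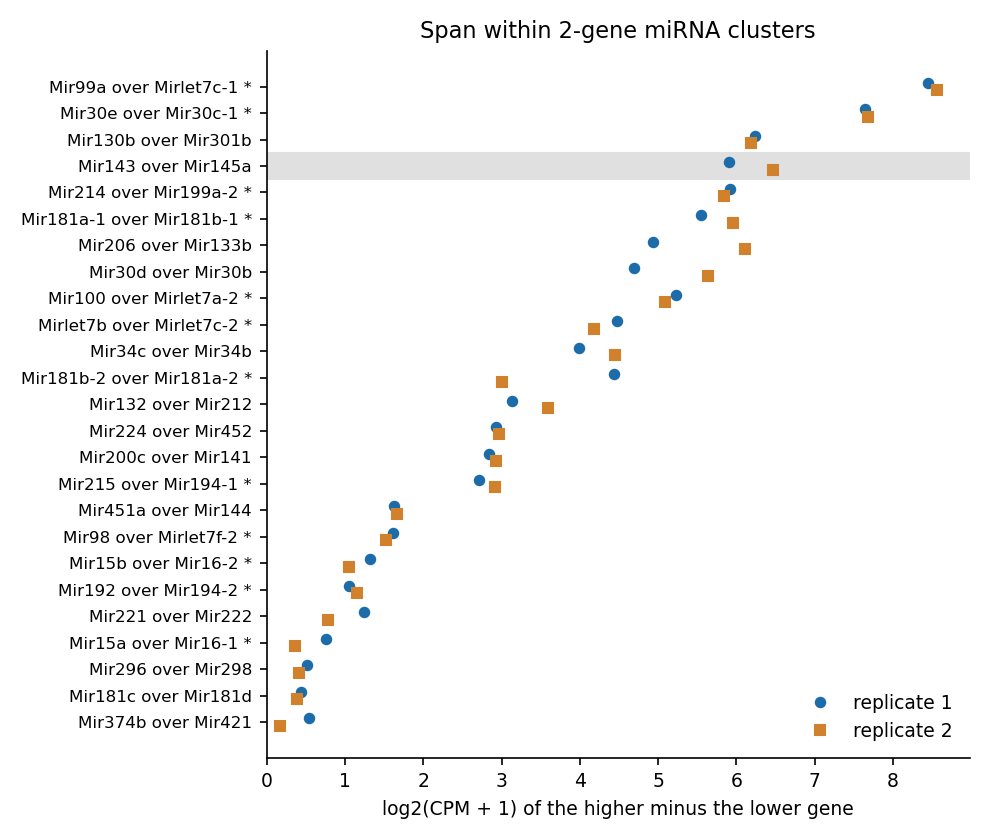
Span within each of the 25 clusters of 2 neighbouring miRNA genes, as log2(CPM + 1) of the higher minus the lower gene, in replicate 1 (circles) and replicate 2 (squares). A star marks clusters in which a symbol carries a copy number, and the grey band marks Mir143 over Mir145a, at 5.91 and 6.46.

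Between the libraries, Mir143 and Mir145a had ratios of opposite sign. The log2 ratio of replicate 1 over replicate 2, with 1 CPM added, was -0.05 for Mir143 (95% exact interval -0.05 to -0.04) and 0.51 for Mir145a (0.48 to 0.54). Mir145a was thus 1.42-fold higher in replicate 1, and Mir143 slightly higher in replicate 2. Over the 466 genes with at least 10 summed counts the median ratio was 0.11 and the median size of the ratio 0.27. A ratio at least as large in size as that of Mir145a was seen in 21.2% of these genes, itself included, and one at least as large as that of Mir143 in 88.6%. Among the 99 genes at 1000 CPM or more, where counting error is small, 7 had a ratio at least as large as Mir145a, itself included, and 81 one at least as large as Mir143.

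The exact conditional binomial test compares the reads of these 2 libraries, not conditions. By this test, with Benjamini-Hochberg adjustment over all 466 genes and a limit of 2-fold, 5.79% of genes were called, and neither member was. Without the fold limit 46.4% of genes passed, and both members did (adjusted p = 4.29e-132 for Mir143 and 2.62e-209 for Mir145a). The Mir143 level of replicate 1 was 0.968 times that of replicate 2, so at these depths the test passes differences of that size. edgeR's exact test, which takes the spread between the pools as error, called 0.858% of genes with the same limits, and the adjusted p was 1 for both members. That spread was estimated from the same 2 libraries that the test compares, so it cannot show that either gene agrees between the pools. With edgeR's TMM scaling the log2 ratio was -0.18 for Mir143 and 0.38 for Mir145a, and with DESeq2 size factors -0.20 and 0.35. The size factors were 1 in both libraries, so that setting compares the counts unscaled. The median ratio of all tested genes was 0.01 with TMM and 0.00 with size factors, against 0.11 in CPM. Size factors are set on the median ratio, so the 0.00 follows by construction. Among the 99 genes at 1000 CPM or more, 43 then had a ratio at least as large as Mir143 with TMM and 40 with size factors, and 14 and 17 one at least as large as Mir145a. How level either gene looks therefore depends on the scaling, while the sign of either ratio did not turn.

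**Figure D3:**
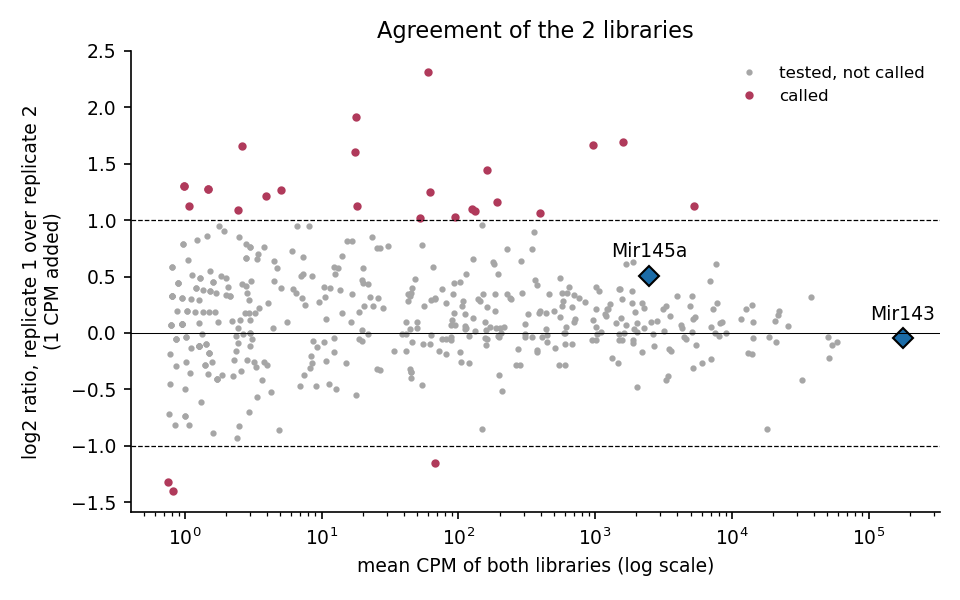
Log2 ratio of replicate 1 over replicate 2 (1 CPM added) against mean CPM on a log scale, for the 466 genes tested. Crimson points passed the binomial test and lie outside the 2-fold lines (dashed), and diamonds mark Mir143 at -0.05 and Mir145a at 0.51, neither of them called.

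Other miRNAs linked to smooth muscle were set beside the pair. In stomach pools a lower level can mean fewer cells of a type or less RNA per cell, which cannot be told apart here. A list of 13 genes linked in published work to differentiated smooth muscle had 12 members in the tables, the pair included. Its members ranged widely. Mir10a, a Hox-cluster miRNA that favours smooth muscle differentiation from mouse stem cells, stood at 42478 CPM in replicate 1 and 33991 CPM in replicate 2. Mir100, a relative of miR-99a that restrains the growth kinase mTOR, stood at 6529 and 7657 CPM, and Mir22 at 2394 and 1992 CPM. Mir28a was at 1738 and 1651 CPM and Mir204 at 43.1 and 40.1 CPM. By mean CPM Mir145a thus stood between Mir100 and Mir22. Mir22 (mean 2193 CPM) lay within the SD of Mir145a (2487 ± 613 CPM), so the order of Mir145a and Mir22 is not resolved. The tables hold miRNA genes only, so no contractile mRNA could be read as a check of the smooth muscle label.

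The miRNAs of the list that are better known from heart and skeletal muscle were scarce. Mir133a-1 and Mir133a-2 had no count in either library, Mir1a-1 had 1 count in replicate 1 and 0 in replicate 2, and Mir133b had 15 and 12. Mir133a-1 and Mir133a-2 are numbered copies of 1 miRNA, and Mir1a-1 carries a copy number too, so reads shared between places may be missing from them. Of the 6 tested list genes other than the pair, 0 were called by the binomial test, against 5.79% of all genes. The log2 ratio of replicate 1 over replicate 2 was positive in 5 and negative in 1 of the 6, with a median of 0.18 beside 0.11 over all tested genes. Without the pair the list held 5.32% of the counts in replicate 1 and 4.53% in replicate 2, so Mir143 alone exceeded its summed count by 1.72 on the log2 scale in replicate 1 and by 2.00 in replicate 2.

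A second list held 13 miRNAs linked to proliferating vascular smooth muscle, 12 of them in the tables. Mir130a led with 23679 CPM in replicate 1 and 20738 CPM in replicate 2, ahead of Mir21a, a miRNA of growth and injury, with 13594 and 11743 CPM, and Mir18 of the miR-17-92 cluster with 3363 and 2905 CPM. Mir221 and Mir222, neighbours on the X chromosome that repress the receptor Kit, were low, at 283 and 168 CPM for Mir221 and 118 and 97.2 CPM for Mir222. The list summed to 4.21% of the counts in replicate 1 and 3.65% in replicate 2. Mir143 alone exceeded that sum 4.17-fold and 4.97-fold, while Mir145a came to 0.0694 and 0.0563 times it. Of its 11 tested genes 0 were called, against 5.79% of all genes. The log2 ratio of replicate 1 over replicate 2 was positive in 10 and negative in 1, with a median of 0.28 beside 0.11 over all tested genes.

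In this list, too, copies share a mature strand. Mir26a-1 and Mir26a-2 encode the same mature strand and had 71 and 303 counts in replicate 1 and 62 and 262 in replicate 2, while Mir26b, with the same seed, had 165504 and 246957. Whether uncounted reads that match several places account for the low Mir26a counts was not tested. Mir221 and Mir222 also share a seed, and their strands differ after it. The strands are shown to set a shared strand beside strands that share a seed only, with the seed in capitals.
Mir26a-1 and Mir26a-2 (miR-26a-5p, chromosomes 9 and 10): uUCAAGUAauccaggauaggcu
Mir26b (miR-26b-5p, chromosome 1): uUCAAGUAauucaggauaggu
Mir221 (miR-221-3p, chromosome X): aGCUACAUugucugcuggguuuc
Mir222 (miR-222-3p, chromosome X): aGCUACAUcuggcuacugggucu

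**Figure D4:**
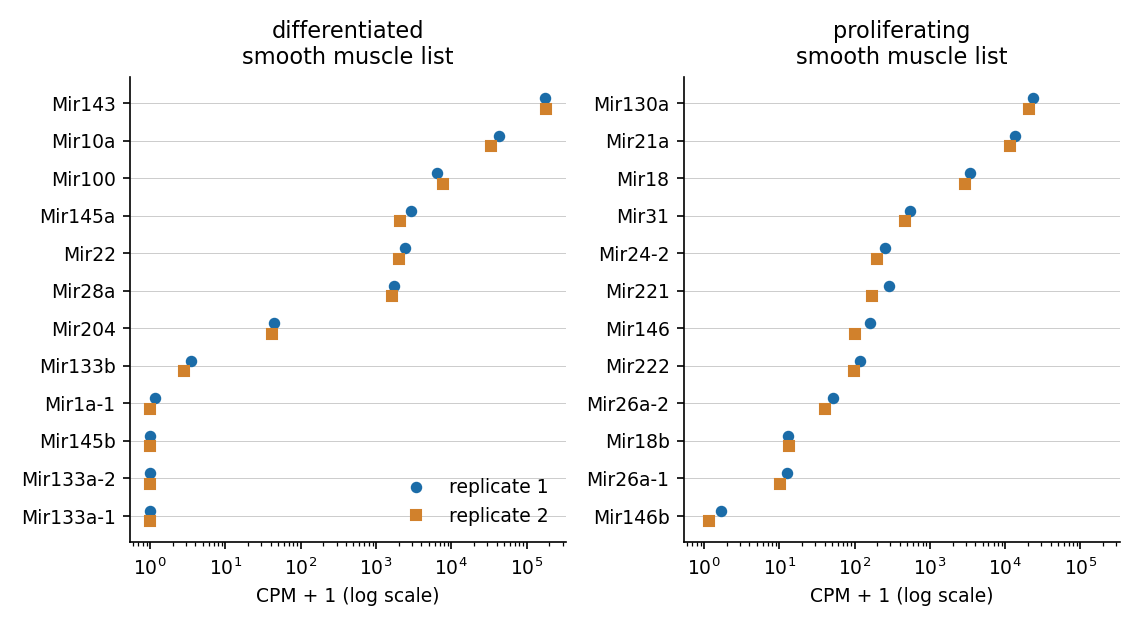
CPM + 1 on a log scale of the genes in the lists linked to differentiated and proliferating smooth muscle, in replicate 1 (circles) and replicate 2 (squares). Mir143 stands highest of both lists, Mir145a by mean between Mir100 and Mir22 of the first, and Mir145b, Mir133a-1 and Mir133a-2 at 0 CPM. The order of Mir145a and Mir22 is not resolved.

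The pair was also set against markers of the other cell types of the stomach wall and of nearby organs. Mir143 exceeded the summed counts of each of the 10 marker lists, as far as their genes were counted. For endothelium, liver and endocrine cells only 1 gene was listed, so there the result follows from the rank of Mir143. In the nerve list 4 of 6 listed genes, Mir9-2 and the 3 copies of Mir124a, were at 0, so that its sum is nearly all Mir137. These 4 carry copy numbers, so reads shared between places may be missing from them. In the white blood cell list Mir142b had 0 sense counts, while replicate 1 gave 10569 and replicate 2 gave 7087 on its opposite strand. RefSeq places Mir142, a gene not in the tables used here, within its span. The ratio was lowest for the 5 genes of the miR-200 family, which mark epithelium and were led by Mir429 at 18732 ± 337 CPM (SD, n = 2). Over their sum Mir143 was higher by 2.01 on the log2 scale in replicate 1 and by 2.07 in replicate 2. It was 6.69-fold and 7.24-fold over the endothelial Mir126a and 20.7-fold and 22.8-fold over the 4 mesenchyme genes, led by Mir214. Mir199a-1 and Mir199a-2 of the mesenchyme list share a mature strand, so reads matching both places may be missing from its sum. The ratio was highest for the heart and skeletal muscle list, at 880-fold in replicate 1 and 693-fold in replicate 2. Copies of Mir1a and Mir133a in that list may lack such reads too. In that list Mir206 led with 149 ± 60.5 CPM, and 2 of 9 listed genes, Mir133a-1 and Mir133a-2, were at 0 in both libraries. The other lists were led by Mir203 (stratified epithelium, 7638 CPM), Mir137 (nerve, 1240 CPM), Mir223 (white blood cells, 1180 CPM in sense counts) and Mir451a (red blood cells, 392 CPM), with Mir122 (1601 CPM) for liver and Mir375 (18048 CPM) for endocrine cells.

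Mir145a stood above some of these lists and below others. Its count was below the summed counts of epithelium, stratified epithelium, endothelium, mesenchyme and endocrine markers in both libraries. It was above those of nerve, red blood cell, liver, and heart and skeletal muscle markers in both, as far as their genes were counted. For white blood cell markers the direction turned with the strands counted: Mir145a had 2.13 and 1.70 times their sense counts, but 0.930 and 0.905 times their counts on both strands, an alternative chosen after seeing the data. Against Mir122, the hepatocyte miRNA, Mir145a had 1.19 times the count in replicate 1 and 2.71 times in replicate 2. Against the mesenchyme list it had 0.344 and 0.258 times the count, as far as the genes of that list were counted.

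Some markers of other tissues moved with the libraries in the direction of Mir145a. The liver marker Mir122 had 14641 counts in replicate 1 and 5051 in replicate 2, a log2 ratio of 1.69. The 3 red blood cell markers summed to 0.0727% of the counts in replicate 1 and 0.0345% in replicate 2, and all 3 were called, higher in replicate 1. Over all tested genes 5.79% were called, and 24 of these 27 were higher in replicate 1. The stratified epithelium markers Mir203 and Mir205 summed to 1.72% and 1.18%, and the ratio of Mir145a to them hardly moved, at 0.170 in replicate 1 and 0.174 in replicate 2. The miR-200 family summed to 4.35% and 4.32%, and the 4 mesenchyme genes to 0.849% and 0.796%. Heart and skeletal muscle markers summed to 199 CPM in replicate 1 and 262 CPM in replicate 2, and the endocrine Mir375 to 1.29% and 2.32% of the counts, both higher in replicate 2. Of the 6 tested heart and skeletal muscle genes, Mir206 alone was higher in replicate 2. The other 5 had positive ratios, and 1 of them, Mir208a, was called. The part of these tissues in the levels of Mir145a was not tested.

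**Figure D5:**
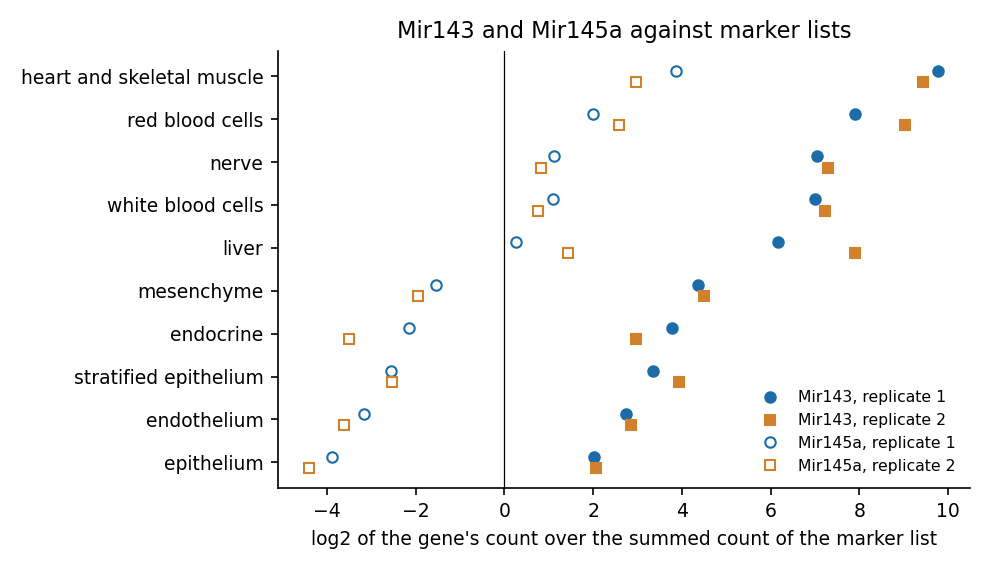
Log2 of the count of Mir143 (filled) or Mir145a (open) over the summed sense count of each of 10 marker lists, in replicate 1 (circles) and replicate 2 (squares). Mir143 lies right of 0 for every list, and Mir145a left of 0 for epithelium, stratified epithelium, endothelium, endocrine cells and mesenchyme.

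Because Mir143 is part of the total to which all counts are scaled, it sets the level given for every other gene. With Mir143 left out of the total, the CPM of each other gene was 1.21 times as high in replicate 1 and 1.22 times in replicate 2. Mir145a then stood at 3542 CPM in replicate 1 and 2509 CPM in replicate 2, and its log2 ratio between the libraries was 0.50.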

How the data were processed

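The authors deposited raw counts of reads for each miRNA gene in a separate table for either library. Per the deposited description files they refer to mm10 and GENCODE M4. Aligner and counter: not given in the sources used here. Columns are unnamed, and the second count column was taken as the sense strand, since in every gene row the first column is the sum of the others and nearly all counts are in the second. Lines that name no gene (46.4% and 45.5% of 11558785 and 12633753 reads) were left out of the totals of 5988677 and 6675498 sense counts. The 2 libraries are separate pools of embryos per the labels.

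Symbols and coordinates came from GENCODE M21 (1894 of 1973 identifiers matched). Both members, the lists and the comparisons were chosen with earlier results of these data known. Named are the members, the 5 genes after Mir143, 3 on either side of Mir145a, the 3 highest genes of both smooth muscle lists and any called, the highest gene of each other list, and the widest and narrowest clusters with 2 on either side of the pair. Other genes (Mir22, Mir28a, Mir204, Mir133b, Mir221, Mir222, Mir26a-1, Mir26a-2, Mir26b, Mir205 and the listed copies among them) were named after their values were seen. CPM, Wilson and Clopper-Pearson intervals and the exact binomial test were computed in Python 3.11.15 (scipy 1.17.1), and TMM, edgeR's exact test (common dispersion of an intercept-only fit) and size factors in R 4.3.3 with edgeR 4.0.16 and DESeq2 1.42.0. Genes needed 10 summed counts, and calls an adjusted p under 0.05 and 2-fold. With 1 group there was no test between conditions. The binomial test was tried on simulated counts with counting error only, so that trial does not cover spread between the pools.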

Additional observations from a re-analysis of the deposited data

How the results depend on the processing

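Mir143 kept rank 1 under every alternative run, and both members kept the sign of their ratio between the libraries and stayed uncalled with the 2-fold limit. No alternative assigned the reads that match several places to genes. The mean of Mir143 was 93374 CPM with all reads as denominator, 217188 CPM without its own counts in the total and 172644 CPM with both strands counted, and 175503 to 181344 CPM without either replicate. The mean of Mir145a was 1299 CPM with all reads as denominator and 2054 to 2921 CPM without either replicate, with ranks of 55 to 63. Its rank was 54 per gene length and 64 with both strands. Mir143 over Mir145a was 6.34 per gene length and 5.91 to 6.46 without either replicate. The clusters with a span at or above the pair numbered 3, 1 without copy-numbered genes, and 2 to 4 without either replicate. The 27 genes called became 13 with pseudocount 5 CPM, 16 at a count minimum of 100, 216 where no fold was asked, and 4 by the exact test of edgeR. The fold limit, the minimum and the pseudocount change by construction what can be called, and the denominator changes every CPM by construction. Counting both strands adds opposite-strand counts to the totals, 209346 in replicate 1 and 213938 in replicate 2, and 0 of them lie at Mir143. The cause of the other shifts was not tested. Chosen after seeing the data, counting both strands turned the mean log2 of Mir145a over white blood cell markers to -0.12, against 0.93, and no other marker list's direction turned. The counts this added to the white blood cell list were those of Mir142b, 10569 in replicate 1 and 7087 in replicate 2. No paired analysis was possible because both samples belong to 1 group. Depth does not limit the 2 members, but genes under about 10 counts are poorly measured.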

Other observations

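Of the 99 genes at 1000 CPM or more, 6 others differed between the libraries by at least as much as Mir145a; they were named after their values were seen. Higher in replicate 1 were the liver miRNA Mir122, with a log2 ratio of 1.69, the Hox-cluster miRNA Mir10b (1.13), Mir484 (0.63), Mir203 of stratified epithelium (0.62) and the imprinted Mir434 (0.61). Higher in replicate 2 was Mir375 of endocrine cells, at -0.85. Mir122 and Mir10b passed the 2-fold limit of the binomial test, and the other 4 did not.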
